A study of Mus musculus with 15 samples.

Results

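Macrophage elastase, Mmp12, was examined together with 6 other matrix metalloproteinases (Mmp13, Mmp8, Mmp9, Mmp2, Mmp14 and Mmp19) and 3 tissue inhibitors of metalloproteinases (Timp1, Timp2 and Timp3) in mouse alveolar macrophages. A gene was taken where a probe of the platform annotation named it and no other gene, and each of the 10 genes had 1 such probe, out of 12909 genes named on the array with a value. Of the 10, 9 had values on enough arrays to enter the tests, and Mmp9 did not. Total RNA of 15 macrophage samples was hybridised on 2-colour arrays, each against a common reference labelled as a macrophage RNA. The question was whether the elastase response is particular to Mmp12 or is shared by other members of the family.

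The 5 samples of the first group came from wild type mice (b6+/+), the 5 of the second from mice deficient in the integrin beta6 subunit (b6-/-, beta6 null), and the 5 of the third from b6-/- mice labelled TGFb+/+ and described as reconstituted with TGFb1. Mice of all 3 groups had received doxycycline. Strain, age, the promoter that drives TGFb1, and whether an array holds 1 animal or a pool are not stated in the labels. The p-values therefore reflect only how far these samples scatter, and part of that scatter may be technical. A wild type group with TGFb1 was not analysed here. Each value is a log2 ratio of sample over reference after centring on the array's median. The base and the direction of the ratio are not stated: the direction is likely, and Mmp12 itself helped to choose it. If it were inverted, every sign below would turn.

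Metalloproteinases are secreted or membrane-bound zinc enzymes that cleave extracellular matrix. They are made as inactive precursors, and TIMPs bind the active enzymes and block them. Mmp12 is the elastase of macrophages and degrades elastin, the recoiling fibre of the alveolar wall. Mmp13 and Mmp8 are collagenases, the latter best known from neutrophil granules, Mmp2 and Mmp9 are gelatinases, Mmp14 is a membrane-type enzyme that activates Mmp2, and Mmp19 is a family member of broader substrate range. The integrin alphavbeta6 of lung epithelium activates latent TGFb, a cytokine that represses several metalloproteinase genes and induces others.

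Mmp12 and Mmp13 lie next to each other in the metalloproteinase cluster of chromosome 9. Their upstream sequences are shown because these 2 genes had the largest differences of the family. AP-1, a factor long tied to metalloproteinase genes, binds the letters TGANTCA, and matches on either strand are in capitals. The sequences are the 250 bases before each start that RefSeq lists (build GRCm38.p6), 5′ to 3′. The windows before the 2 starts of Mmp12 span chr9:7344147-7344396 (plus strand) and chr9:7347124-7347373 (plus strand), and the window of Mmp13 spans chr9:7272264-7272513 (plus strand).
Mmp12, first start: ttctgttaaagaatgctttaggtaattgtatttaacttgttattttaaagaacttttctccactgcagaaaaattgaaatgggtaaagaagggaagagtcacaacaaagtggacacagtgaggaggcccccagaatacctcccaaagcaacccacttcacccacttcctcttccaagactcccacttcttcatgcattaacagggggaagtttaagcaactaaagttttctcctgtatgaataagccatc
Mmp12, second start: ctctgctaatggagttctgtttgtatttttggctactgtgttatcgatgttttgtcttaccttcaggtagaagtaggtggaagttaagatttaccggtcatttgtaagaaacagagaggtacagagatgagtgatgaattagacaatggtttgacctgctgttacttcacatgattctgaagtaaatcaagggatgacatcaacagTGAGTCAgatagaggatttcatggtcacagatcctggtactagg
Mmp13: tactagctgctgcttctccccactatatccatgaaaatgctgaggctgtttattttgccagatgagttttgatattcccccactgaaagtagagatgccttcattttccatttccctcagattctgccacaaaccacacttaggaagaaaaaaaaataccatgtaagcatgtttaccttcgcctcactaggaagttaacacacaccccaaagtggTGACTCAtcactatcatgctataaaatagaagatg

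The window of Mmp13 held 1 match, TGACTCA, whose first base lies 35 bases before the start. The window of the second Mmp12 start held TGAGTCA, from 44 bases before it, and that of the first start held no match. The first start, chr9:7344397, is that of the gene, and the second, chr9:7347374, lies inside the gene. Among the members, 7 matched an entry of the sequence table, and the windows of Mmp8, Mmp14, Timp1, Timp2 and Timp3 held no match. Mmp9, Mmp2 and Mmp19 had no entry. Over all 32851 windows of the same length, 6.75% held a match. The letters AGGAAG, bound by Ets factors of the PEA3 type and searched on both strands, occurred in the first Mmp12 window (1 match) and in the windows of Mmp13 (2), Mmp8 (1), Mmp14 (1), Timp1 (2) and Timp3 (1), and in 29.5% of all windows. The TGFb inhibitory element known from stromelysin genes was searched on both strands and occurred in none of the members' windows and in 0.791% of all. A match is a description of these letters and not a site.

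Mmp12 was the member that passed the test, in beta6 null against wild type and with TGFb1 against beta6 null. In replicate order, its log2 ratio was 0.33, 0.54, 0.15 and 0.03 on the 4 wild type arrays with a value, since replicate 2 had none. On the 5 beta6 null arrays it was 4.24, 4.80, 5.88, 4.11 and 3.81. On the 5 TGFb1 arrays it was 2.66, 2.69, 2.69, 1.89 and 1.36. The 3 groups did not overlap, with beta6 null highest, wild type lowest and the TGFb1 group between them. By limma, fitted to all 13273 features with Benjamini-Hochberg adjustment, Mmp12 rose by 4.31 in beta6 null (19.8-fold, SE 0.42, adjusted p = 1.84e-04, higher on 5 of 5 arrays), a comparison in which 0.949% of features were called. With TGFb1 it was 2.31 lower than in beta6 null (difference -2.31, SE 0.40, adjusted p = 0.0199, lower on 5 of 5 arrays), where 0.708% of features were called. By exact two-sided permutation of Mmp12 alone, both differences gave p = 0.00794 (0.0119 after adjustment over 3 comparisons), the smallest these arrays can give.

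With TGFb1 the elastase level stood 1.997 above wild type (SE 0.42, 95% interval 1.09 to 2.91, 5 of 5 arrays above the highest wild type array). That difference did not pass limma over all features (adjusted p = 0.577, and 0.0594 to 0.930 over its alternatives), a comparison in which 0% of features were called and 6.26% had an unadjusted p under 0.05. The exact permutation test of Mmp12 alone gave p = 0.0159 (0.0159 adjusted over 3 comparisons). The 2 comparisons with beta6 null share that group's arrays, as do the 2 with wild type.

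2 facts of the arrays touch these values. Xist, which coats the silenced X chromosome of female cells, lay between -2.46 and 0.88 on the beta6 null arrays, between -4.14 and -2.37 on those of wild type and between -3.48 and -2.27 with TGFb1. With the Xist level as a covariate in limma, Mmp12 differed by 4.07 (SE 0.70, adjusted p = 0.109) and -2.09 (SE 0.66, adjusted p = 0.513), so both calls ended. Apart from replicate 4, every beta6 null array had a higher Xist value than all arrays of the other groups. Xist level and group can therefore hardly be told apart by this fit. In that fit 0 of all 13273 features were called in either comparison. The spread of the values also differed between arrays (SD 0.841 to 2.01), and with every array scaled to 1 spread the rise was 3.59 (adjusted p = 0.00574) and the difference with TGFb1 -1.22 (adjusted p = 0.270). Leaving out beta6 null replicate 2 (-2.25, adjusted p = 0.0545) or the fourth TGFb1 array (replicate 4; -2.22, adjusted p = 0.0747) also ended the call with TGFb1. So did quantile normalization (-2.02, adjusted p = 0.0710), a fit of the 2 groups alone (-2.31, adjusted p = 0.0502) and leaving out the 2 arrays whose titles are numbered apart (-2.20, adjusted p = 0.0622).

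Macrophage markers are given beside Mmp12 because the samples are labelled as macrophages. Of 16 markers 10 were tested and 0 passed limma in each comparison. Over all features, an unadjusted p under 0.05 by limma was reached by 11.5% in beta6 null against wild type. It was reached by 15% in the TGFb1 group against beta6 null. In beta6 null against wild type 3 of the 10 were above 0 (median -0.34, against -0.05 over all features), and 2 had an unadjusted p under 0.05, both lower: the keratin Krt79 (-0.99, SE 0.32, adjusted p = 0.224) and Siglecf, a lectin of alveolar macrophages (-1.98, SE 0.64, adjusted p = 0.225). Between the TGFb1 group and beta6 null 9 of the 10 were above 0 (median 0.62, against 0.12 over all features), and 5 had an unadjusted p under 0.05, all higher, with the smallest for the endotoxin co-receptor Cd14 (1.59, SE 0.52, adjusted p = 0.164) and Siglecf (1.81, SE 0.64, adjusted p = 0.206). The mean of the 7 markers with values on all arrays lay between -2.10 and -0.38 for wild type, -1.71 and -1.37 for beta6 null, and -1.05 and -0.39 with TGFb1. Their part in the Mmp12 values was not tested.

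**Figure D1:**
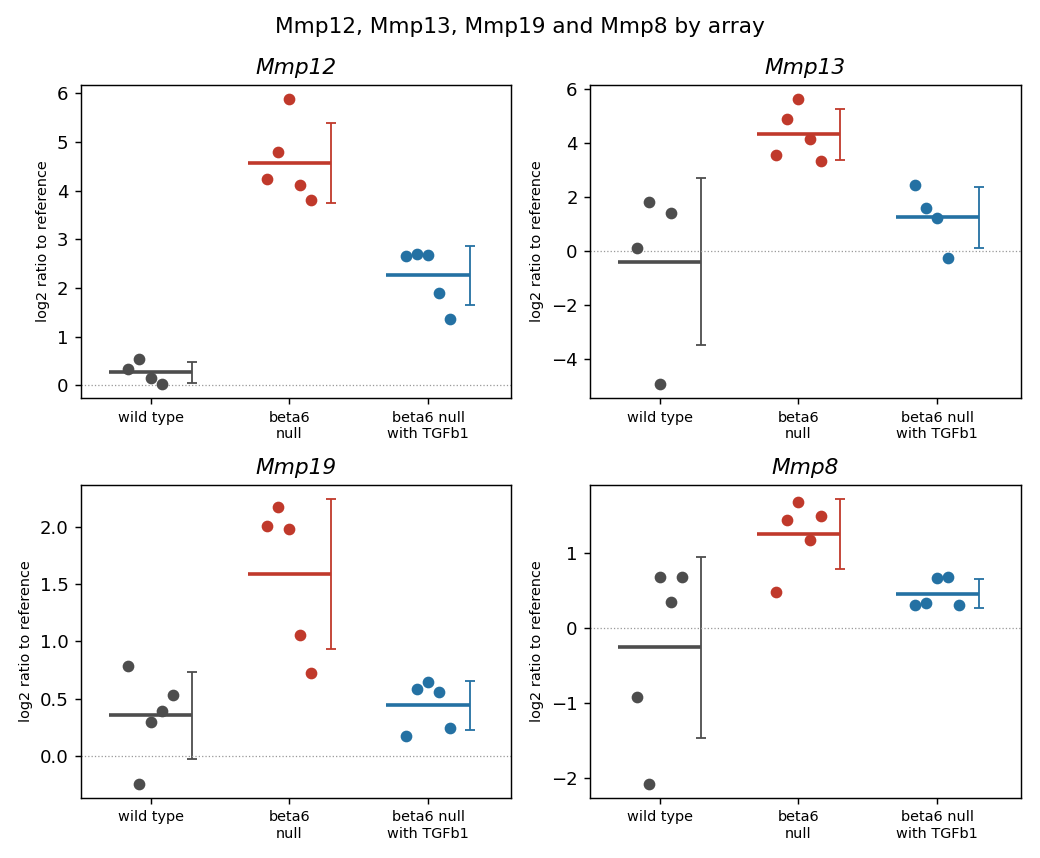
Log2 ratio of sample over reference for Mmp12, Mmp13, Mmp19 and Mmp8, each in its own panel with its own vertical scale. Points are arrays of the 3 groups, horizontal lines are group means and the bars at their right are SDs. For Mmp12 the 3 groups do not overlap. For Mmp13 all 5 beta6 null arrays, at 3.33 and above, lie above all others.

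Mmp13, collagenase 3, differed by slightly more than Mmp12 in beta6 null against wild type, yet did not pass. Its log2 ratio was 0.11, 1.82, -4.91 and 1.41 on wild type replicates 2 to 5, and replicate 1 had no value. On the beta6 null arrays it was 3.56, 4.89, 5.61, 4.13 and 3.33. With TGFb1 it was 2.44, 1.57, 1.20 and -0.28 on replicates 1, 2, 4 and 5. No array of wild type or TGFb1 reached the lowest of the 5 from beta6 null, and the former 2 groups overlapped. The difference between beta6 null and wild type was 4.70 (SE 1.14, 95% interval 2.22 to 7.17, adjusted p = 0.0878), which ranked 2 of 13273 by size where Mmp12 ranked 3.

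Wild type replicate 4, at -4.91, bears on that size. Without it the difference was 3.19 (adjusted p = 0.0673), and over all alternatives the adjusted p ran from 0.0646 to 0.604. Between the TGFb1 group and beta6 null Mmp13 differed by -3.07 (SE 1.14, 95% interval -5.54 to -0.59, adjusted p = 0.226), and its adjusted p was 0.0571 when the same wild type array was left out. Against wild type the TGFb1 group was 1.63 higher (SE 1.21, adjusted p = 0.838) and 0.12 higher without that array.

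Where both had a value, the order of the arrays for Mmp13 was close to that for Mmp12. Replicate 3 was the highest and replicate 2 the next of the beta6 null arrays for both genes, and replicate 5 was the lowest for both. In the TGFb1 group replicate 5 was again the lowest for both. Over the 12 arrays with both values Pearson's r was 0.81, a description that holds the group differences and whatever the arrays share. The sequences of the probes were not analysed here.

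**Figure D2:**
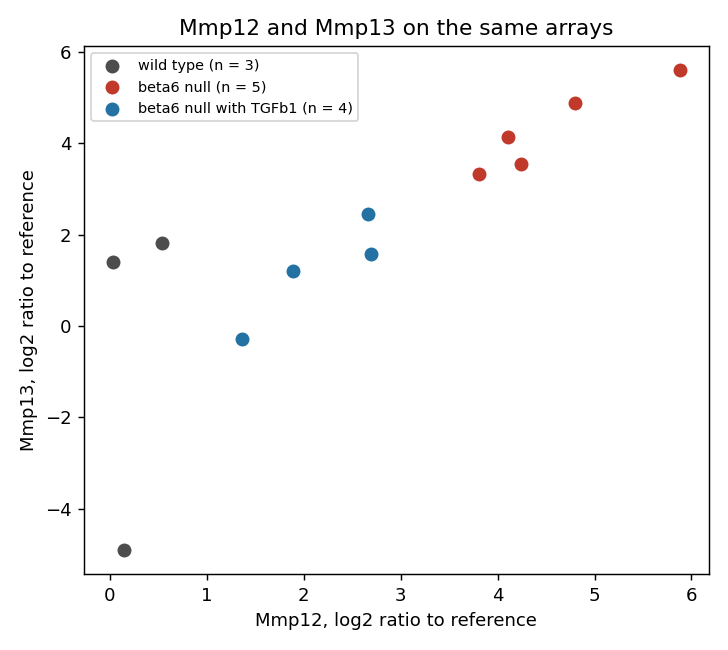
Mmp13 against Mmp12, both as log2 ratios of sample over reference, on the 12 arrays with both values; colours are the 3 groups. The 5 beta6 null arrays lie at the upper right, the 4 TGFb1 arrays in the middle and the 3 wild type arrays at the left, 1 of them with Mmp13 at -4.91.

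Mmp19 was higher in beta6 null macrophages by a smaller amount that lay near the threshold. Its values were 0.79, -0.24, 0.30, 0.39 and 0.53 in wild type. In beta6 null they were 2.01, 2.17, 1.98, 1.05 and 0.72, so 3 arrays stood well apart and replicate 5 fell within the wild type range. Those 3 arrays also had the widest spread of values over all features in the beta6 null group. With TGFb1 the Mmp19 values were 0.17, 0.58, 0.65, 0.56 and 0.24, all below every beta6 null array and within the wild type range. The difference was 1.23 in beta6 null against wild type (SE 0.32, 95% interval 0.56 to 1.91, adjusted p = 0.0967) and -1.15 with TGFb1 against beta6 null (SE 0.32, 95% interval -1.82 to -0.47, adjusted p = 0.105), and neither passed. The first passed in 2 of 27 alternatives. These were without beta6 null replicate 5 (1.45, adjusted p = 0.0341) and when only features with values on all 15 arrays were tested (adjusted p = 0.0433). It was smaller with array weights (0.64, adjusted p = 0.186), equal spread (0.78, adjusted p = 0.217) and quantile normalization (0.93, adjusted p = 0.129). With Xist as a covariate it was larger but did not pass (1.36, adjusted p = 0.656). Against wild type, the TGFb1 group differed by 0.09 (95% interval -0.59 to 0.76).

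Mmp8, the neutrophil collagenase, also lay higher in beta6 null without passing. Its values were -0.92, -2.07, 0.68, 0.34 and 0.67 in wild type. They were 0.48, 1.43, 1.68, 1.17 and 1.48 in beta6 null, where only replicate 1 overlapped wild type. With TGFb1 they were 0.31, 0.33, 0.66, 0.67 and 0.30, closely grouped inside the wild type range. The difference was 1.51 between beta6 null and wild type (SE 0.47, 95% interval 0.51 to 2.51, adjusted p = 0.190) and -0.79 with TGFb1 (SE 0.47, adjusted p = 0.450).

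Neutrophil markers are given beside Mmp8 because that cell is its best known source. Of 16 markers, 12 had a probe and 9 were tested. In beta6 null 1 of the 9 passed limma, against 0.949% of all features. S100a8, a calgranulin of neutrophils and activated macrophages, rose in beta6 null (2.13, SE 0.29, adjusted p = 0.00148). The other 8 did not pass, and the median difference of the 9 was -0.12, against -0.05 over all features. Between the TGFb1 group and beta6 null 0 of the 9 passed limma and 1 had an unadjusted p under 0.05, S100a8 (-0.93, SE 0.29, adjusted p = 0.154), followed by the chemokine receptor Cxcr2 (-1.21, SE 0.64, adjusted p = 0.411). Of all features 15% had an unadjusted p under 0.05 there. The mean of the 3 markers with values on all arrays lay between -0.88 and -0.03 for wild type, -0.96 and 0.78 for beta6 null, and -1.37 and 0.17 with TGFb1. Their part in the Mmp8 values was not tested. As ratios to a macrophage reference, these values give no absolute level, so they cannot show whether a marker is absent, nor check the labelled cell type. In bulk RNA, fewer cells of a type and less RNA per cell cannot be told apart.

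The gelatinases gave no call. Mmp2 was 0.73, -0.88, -1.43 and 0.47 in wild type (replicate 2 had no value) and 1.20, 0.37, 0.42 and 0.03 in beta6 null (replicate 3 had none). With TGFb1 it was 0.56, -2.32, 0.20, -2.74 and 0.18, where replicates 2 and 4 stood far below the rest. The groups overlapped, and the differences were 0.78 in beta6 null against wild type (SE 0.77, adjusted p = 0.722) and -1.33 with TGFb1 against beta6 null (SE 0.73, adjusted p = 0.421).

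Mmp9 had 9 values in all. They were -3.77, 2.13, 0.37 and -1.98 in wild type, 0.99, 1.74, 0.12 and 0.07 in beta6 null, and -0.26 on 1 TGFb1 array. The wild type values spanned those of both other groups. It did not enter the fit, for which each group needed 3 arrays with a value. In a fit of wild type and beta6 null alone its difference was 1.54 (SE 1.15, adjusted p = 0.714).

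Mmp14, the membrane-type enzyme, gave overlapping groups. Wild type arrays averaged 0.43 ± 0.71 (SD, n = 5). Those of beta6 null averaged 0.65 ± 0.28 (SD, n = 5) and those with TGFb1 0.34 ± 0.54 (SD, n = 5). The difference was 0.22 in beta6 null (95% interval -0.54 to 0.98, adjusted p = 0.848) and -0.31 with TGFb1 (95% interval -1.07 to 0.45, adjusted p = 0.736). Of the wild type arrays, replicate 2 stood at 1.63 and the others between -0.15 and 0.37.

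None of the 3 inhibitors passed limma, and 0 of them had an unadjusted p under 0.05 in beta6 null against wild type. Timp1, a secreted inhibitor that many stimuli induce, was 0.55, 0.93, 2.07 and 1.58 in wild type (replicate 1 had no value), 2.20, 1.71, 0.60 and -0.36 in beta6 null (replicate 1 had none) and 0.37, 0.80, -0.20, 0.65 and 0.79 with TGFb1. The groups overlapped, and the difference was -0.24 in beta6 null against wild type (SE 0.53, 95% interval -1.39 to 0.91, adjusted p = 0.890) and -0.56 with TGFb1 against beta6 null (SE 0.50, adjusted p = 0.652). Timp2, which also takes part in the activation of Mmp2 by Mmp14, was 0.91, 1.43, 1.12, 0.51 and 0.63 in wild type, 2.80, 1.10, 1.14, 0.66 and 0.72 in beta6 null and 0.64, 0.96, 0.83, 0.80 and 0.67 with TGFb1. Apart from beta6 null replicate 1, the beta6 null arrays lay within the wild type range. Its difference was 0.36 in beta6 null (95% interval -0.42 to 1.14, adjusted p = 0.728) and -0.02 without that array, and -0.50 with TGFb1 (adjusted p = 0.550). Timp3, which is bound to matrix, was -0.48, 0.66, 1.13, 0.35 and -0.20 in wild type, -2.24, 0.05 and 0.24 on the 3 beta6 null arrays with a value and -0.66, 0.57, -1.29, -0.30 and 0.13 with TGFb1. Its difference was -0.94 in beta6 null (SE 0.60, 95% interval -2.25 to 0.36, adjusted p = 0.565) and 0.34 with TGFb1 (SE 0.60, adjusted p = 0.842), and rests on 3 values of the beta6 null group, of which replicate 2 stood far below the others. Of 14 fibroblast and endothelium markers, cells known for Mmp2, Mmp14 and the TIMPs, 8 were tested and 0 passed limma in each comparison (1 had an unadjusted p under 0.05 in beta6 null against wild type, and 0 with TGFb1 against beta6 null). The shares of all features at that unadjusted level were 11.5% and 15%. In beta6 null the smallest p were those of the surface glycoprotein Thy1 (2.23, SE 0.92, adjusted p = 0.382) and the proteoglycan Lum (0.74, SE 0.37, adjusted p = 0.466). With TGFb1 they were those of Lum (-0.78, adjusted p = 0.342) and the collagen chain Col1a1 (1.05, adjusted p = 0.449). Their part was not tested.

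**Figure D3:**
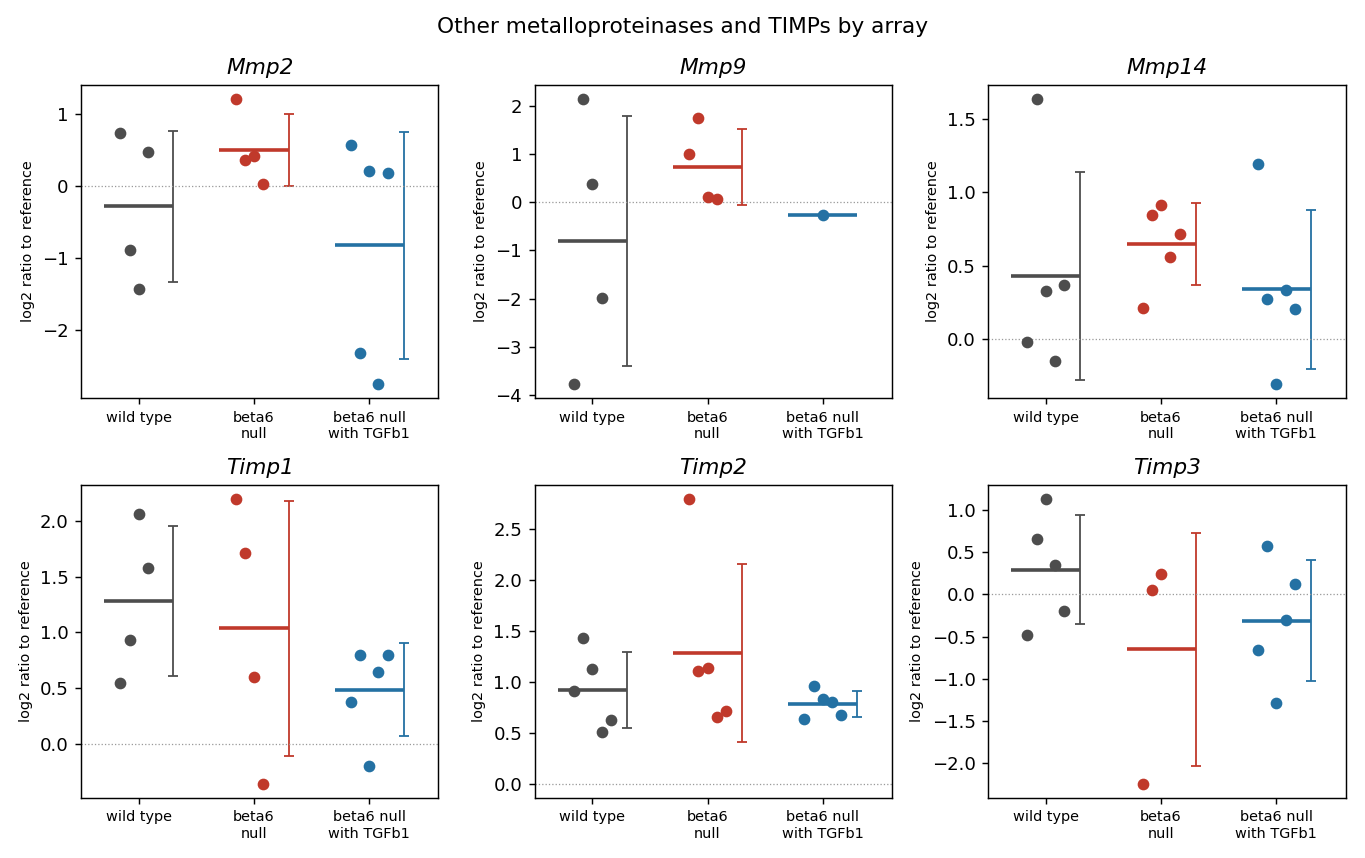
Log2 ratio of sample over reference for Mmp2, Mmp9, Mmp14, Timp1, Timp2 and Timp3, each in its own panel with its own vertical scale. Points are arrays, horizontal lines are group means and the bars at their right are SDs (Mmp9 has 1 value with TGFb1, and so no bar). The wild type and beta6 null points overlap in all 6 panels, and Timp2 of beta6 null replicate 1 stands at 2.80.

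Counted over the members, Mmp12 was the 1 of 9 tested that was called in beta6 null against wild type (1 of 9 higher, 0 lower, against 0.949% of all features). An unadjusted p under 0.05 was reached by 4 of the 9, all higher and all metalloproteinases (Mmp12, Mmp13, Mmp19 and Mmp8), against 11.5% of all features in either direction. The arrays of beta6 null lay wholly above those of wild type for 2 members, Mmp12 and Mmp13, and for 2.06% of all features. The 6 tested metalloproteinases among the members were all above 0 (median difference 1.37, against -0.05 over all features), while 1 of the 3 inhibitors was (median -0.24). Of all features 46.9% were above 0. Among the other metalloproteinases and Timp4, which are not members, 3 of 10 tested were above 0 (median -0.37).

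Between the TGFb1 group and beta6 null, 1 of 9 members was called, Mmp12, lower (0.708% of all features), and an unadjusted p under 0.05 was reached by Mmp12, Mmp13 and Mmp19, against 15% of all features. For these 3, the TGFb1 arrays lay wholly below those of beta6 null, as for 1.89% of all features. The 6 tested metalloproteinases among the members were all below 0 (median -1.24, against 0.12 over all features). Of all features 56.7% were above 0, as were 7 of the 10 tested among the other metalloproteinases and Timp4 (median 0.27). The signs of both comparisons share the beta6 null arrays. Between the TGFb1 group and wild type, 0 of 9 members were called by limma and 1 had an unadjusted p under 0.05, Mmp12, also the 1 member whose arrays did not overlap (1.79% of features were so placed, higher).

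**Figure D4:**
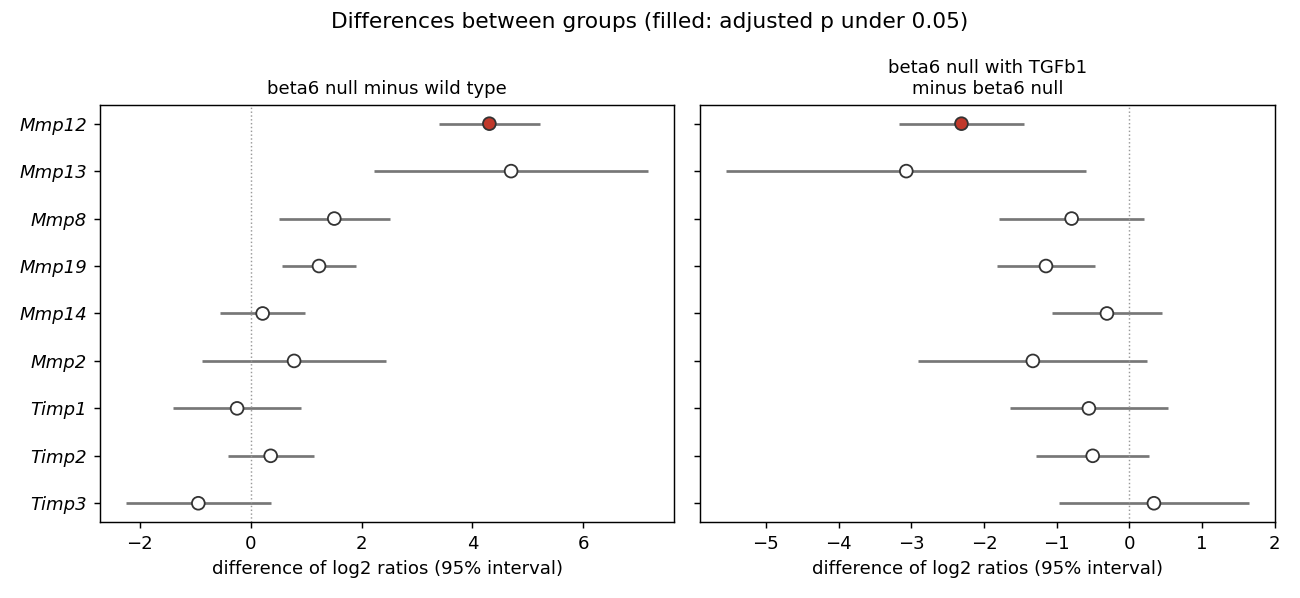
Differences of log2 ratios between groups for the 9 tested members, with 95% intervals of the limma fit; filled points passed an adjusted p of 0.05. The left panel sets beta6 null against wild type and the right panel the TGFb1 group against beta6 null. Mmp12 is the 1 filled point of each panel, at 4.31 and -2.31, and the intervals of Mmp13, from 2.22 to 7.17 and from -5.54 to -0.59, are the widest of the 9 in each panel.

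Whether a member's change differed from that of Mmp12 was tested within arrays, by fitting Mmp12 minus each other feature. In beta6 null against wild type, Mmp12 rose more than 7 of the 8 members that could be tested. The gap was 3.22 for Mmp19 (SE 0.47, adjusted p = 5.48e-06), 3.25 for Mmp8 (SE 0.53, adjusted p = 1.84e-05), 3.19 for Mmp2 (SE 0.80, adjusted p = 0.00117), 3.79 for Mmp14, 3.82 for Timp2, 4.83 for Timp3 and 4.90 for Timp1. For Mmp13 it was -0.54 (SE 1.09, 95% interval -2.86 to 1.78, adjusted p = 0.628), so a gap of several fold in either direction is within the error. Of wild type, only replicates 3, 4 and 5 had both values, and the gap depends on replicate 4. There Mmp12 stood at 0.15 and Mmp13 at -4.91. On replicates 3 and 5 Mmp13 lay above Mmp12 instead (1.82 against 0.54, and 1.41 against 0.03). Without replicate 4 too few wild type arrays were left to test this gap. Mmp12 had so large a change that 99.2% of all features differed from it, and the 7 members are no exception to that; Mmp13 was among the few features that did not. In the TGFb1 group against beta6 null, 6 of 8 members differed from Mmp12 (86.3% of all features), and Mmp13 (0.65, 95% interval -1.48 to 2.78, adjusted p = 0.533) and Mmp2 (-0.65, SE 0.76, adjusted p = 0.414) did not. After scaling the arrays to 1 spread, and with Xist as a covariate, 0 of 8 differed from Mmp12 in that comparison. With TGFb1 against wild type 7 of 8 differed (80.2% of all features), all but Mmp13 (0.11, SE 1.14). That gap rests on the same wild type arrays and likewise depends on replicate 4.

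In the chromosome 9 cluster the 2 large differences were those of adjacent genes. RefSeq places 10 metalloproteinase genes there in the order Mmp13, Mmp12, Mmp1b, Mmp3, Mmp1a, Mmp10, Mmp8, Mmp27, Mmp20 and Mmp7, of which 9 had a probe and were tested. Next to Mmp13 and Mmp12, the collagenase-like Mmp1b differed by 0.10 in beta6 null (SE 0.31, adjusted p = 0.924) and stromelysin 1, Mmp3, by -0.58 (SE 0.55, adjusted p = 0.717). Mmp1a (-0.27, SE 1.08) and stromelysin 2, Mmp10 (-0.93, SE 0.94), followed, then Mmp8. Enamelysin, Mmp20, differed by 0.42 (SE 0.74) and matrilysin, Mmp7, by 1.54 (SE 1.19, adjusted p = 0.645). Mmp12 minus Mmp1b gave 4.202 (SE 0.54, adjusted p = 1.44e-06) and Mmp12 minus Mmp3 gave 4.70 (SE 0.65, adjusted p = 4.21e-06), while Mmp12 minus Mmp7 gave 1.86 and did not pass (95% interval -0.29 to 4.02, adjusted p = 0.0849).

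**Figure D5:**
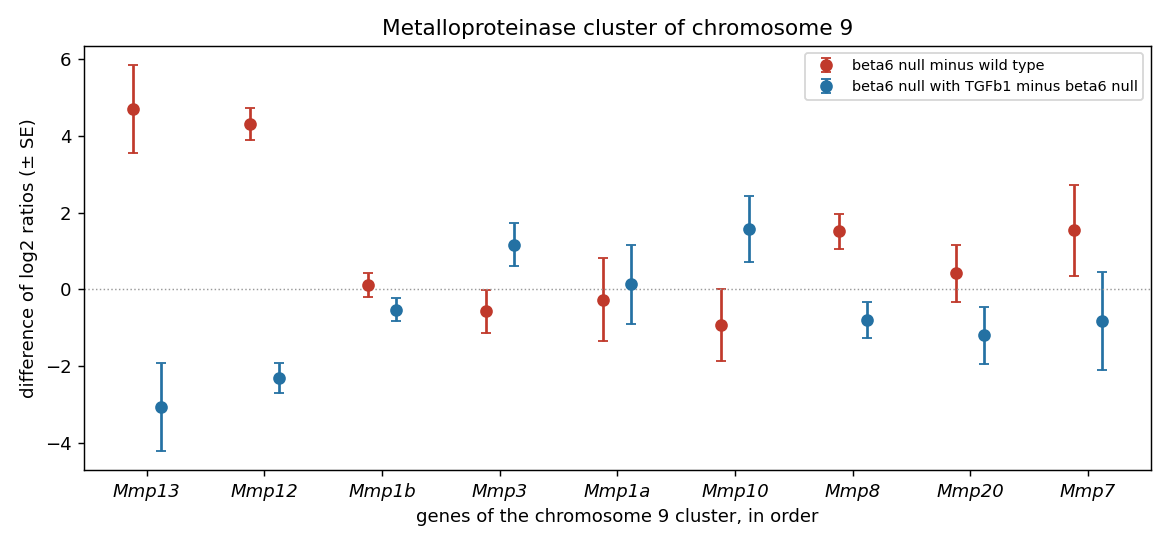
Difference of log2 ratios (points) with its standard error (bars) for the 9 measured metalloproteinase genes of the chromosome 9 cluster, in genomic order and not to scale. Red sets beta6 null against wild type and blue the TGFb1 group against beta6 null. Mmp13 and Mmp12, at 4.70 and 4.31, stand apart from the others, the next of which is Mmp7 at 1.54.

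Among 17 other metalloproteinases and Timp4, 12 had a probe, 10 were tested and 0 passed limma in each comparison (unadjusted p under 0.05 for 0 in beta6 null and 1 with TGFb1 against beta6 null). For this and the next 3 lists, the shares of all features with an unadjusted p under 0.05 were 11.5% and 15% in these 2 comparisons. In beta6 null against wild type 3 of the 10 were above 0 (median -0.37), and the smallest unadjusted p was that of Timp4, an inhibitor (-1.11, SE 0.61, adjusted p = 0.501). Of 21 ADAM and ADAMTS proteases, 14 were tested and 0 passed limma (1 at an unadjusted p under 0.05). Adam8, a protease of activated leukocytes, differed by 2.35 (SE 0.68, adjusted p = 0.149), and Adam17, the sheddase of Tnf, by -0.52 (SE 0.29, adjusted p = 0.503). Of 26 genes of activation, docking and clearance, among them the plasminogen system, 17 were tested and 0 passed limma (1 unadjusted), with the docking receptor Cd44 at -1.04 (SE 0.41, adjusted p = 0.322) and Thbs1 at -1.36 (SE 0.72, adjusted p = 0.499). Of 31 substrate genes of elastic fibre and matrix, 26 were tested and 0 passed limma (3 unadjusted), with the laminin Lamc1 at 0.83 (SE 0.28, adjusted p = 0.239) and Nid1, a basement membrane linker, at 0.79 (SE 0.28, adjusted p = 0.266). With TGFb1 against beta6 null, 0 passed limma in each of these 4 lists as well (unadjusted, in the same order, 1, 2, 5 and 2), and Lamc1 stood nearest at -1.25 (SE 0.28, adjusted p = 0.0537). The 2 smallest p of each list were there those of Timp4 (1.37) and Mmp3 (1.17), of Adam17 (0.66) and the sheddase Adam9 (0.88), of plasminogen, Plg (1.60), and the integrin chain Itgb3 (-1.64), and of Lamc1 and a second laminin chain, Lamb1 (3.11, SE 1.13, adjusted p = 0.224).

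Of 37 regulators of metalloproteinase transcription 28 were tested, and 11 had an unadjusted p under 0.05 in beta6 null (3 higher and 8 lower, against 11.5% of all features) and 10 in the TGFb1 group against beta6 null (7 higher and 3 lower, against 15% of all features). In beta6 null, 1 passed and fell, Skil, a TGFb-induced repressor of Smads (-1.86, SE 0.31, adjusted p = 0.00826). The TGFb1 group had 2 that rose against beta6 null, Pparg, a nuclear receptor of alveolar macrophages (1.84, SE 0.36, adjusted p = 0.0331), and Skil (1.48, SE 0.31, adjusted p = 0.0436). In beta6 null the macrophage growth factor Csf1 was at 1.47 (SE 0.36, adjusted p = 0.0792) and the cytokine Tnf at -2.06 (SE 0.50, adjusted p = 0.0835), and neither passed. Against wild type the TGFb1 group had 0 calls by limma in this list and 0 at an unadjusted p under 0.05.

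Other cell markers are given beside the members as measured, and their part was not tested. In beta6 null against wild type 0.949% of all features passed limma and 11.5% had an unadjusted p under 0.05. In the TGFb1 group against beta6 null the shares were 0.708% and 15%. Of 14 lung epithelium markers 11 were tested, of which 7 were above 0 in beta6 null (median 0.39) and 4 in the TGFb1 group against beta6 null (median -0.28). In beta6 null 1 of the 11 passed limma and rose, the surfactant protein gene Sftpc (2.18). Another 2 passed and fell, the adhesion protein gene Epcam (-2.34) and the keratin Krt19 (-2.01). With TGFb1 against beta6 null 2 of the 11 passed, Krt19 (2.37) and Epcam (1.98), both higher. Of 10 dendritic cell and monocyte markers 8 were tested. In beta6 null 6 of the 8 were above 0 (median 0.83, against -0.05 over all features) and 3 were higher at an unadjusted p under 0.05, Itgae (2.28, adjusted p = 0.141), Zbtb46 (1.22, adjusted p = 0.264) and Flt3 (1.61, adjusted p = 0.399), while 1 passed and fell, the endocytic receptor Ly75 (-2.72). In the TGFb1 group against beta6 null 3 of the 8 were above 0 (median -0.60), 3 had an unadjusted p under 0.05 (1 higher, 2 lower), and Itgae, an integrin chain, passed and fell (-3.89). Of 10 lymphocyte markers 5 were tested and 0 passed limma in each comparison. An unadjusted p under 0.05 was reached by 2 in beta6 null, Cd79b of the B cell receptor (1.84, adjusted p = 0.272) and Cd2 (-0.97, adjusted p = 0.328), and by the same 2 with TGFb1 against beta6 null (-1.61, adjusted p = 0.260, and 1.44, adjusted p = 0.0937).

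The genes whose pattern was most like that of Mmp12 were sought over the 14 arrays on which it had a value, by Pearson's r among 6599 genes with a value on all of them. The 5 with the highest r were Bin1 (0.95), a membrane-bending adaptor, Hk1 (0.95), a hexokinase, H2-Ea (0.94), a chain of MHC class II, Fabp5 (0.93), a fatty acid-binding protein, and St8sia4 (0.93), a polysialyltransferase. The lowest r were those of Mesp1 (-0.94), Noct (-0.93), a deadenylase-like protein of circadian output, and Sycn (-0.91). Among members measured on the same arrays, Mmp19 (r = 0.77) ranked 69 and Mmp8 (r = 0.70) ranked 140 of the 6599, ahead of Mmp14 (r = 0.56, rank 345) and Timp2 (r = 0.39, rank 951). These values describe arrays that fall into 3 groups, and carry no test.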

How the data were processed

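Alveolar macrophage RNA was measured on 15 arrays, 5 per group, grouped by the labels. The authors deposited log ratios against a common reference, here read as log2 ratios; their scanning, background and normalization steps are not described by the labels. From 17225 probes, 30 control spots were dropped. Genes were named by the platform annotation, with symbols updated through Entrez IDs (RefSeq, GRCm38.p6), and several probes of 1 gene were averaged. Array medians were subtracted. limma 3.58.1 (R 4.3.3) then fitted 3 group means to 13273 features, each with values on 3 or more arrays per group, with Benjamini-Hochberg adjustment across these features and a threshold of 0.05. Arrays held 11615 to 16483 values, and their number limits the precision. Intervals are 95% intervals of the fit. Mmp12 minus each other feature was fitted likewise (13036 features). The steps were run on simulated data drawn independently for each feature. Beyond the spread of each array and its missing values, nothing that features share on an array was simulated. Alternatives were other filters, normalizations, weights, sample choices and covariates.

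The members, lists and tests were chosen with earlier results of these data known. Named genes were all members, called genes of the lists (where a list had no call, the 2 with the smallest p, taken in each of the 2 comparisons with beta6 null), the chromosome 9 metalloproteinases, the genes most and least like Mmp12, and Xist. Csf1, Tnf, Zbtb46 and Flt3 were singled out after their values were seen.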

Additional observations from a re-analysis of the deposited data

Results flagged for a closer look

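2 of the 28 sets of 4 or 5 arrays examined held 1 array far from the rest, where chance sets about 5% of them apart. Mmp14 stood at 1.63 on wild type replicate 2, against 0.37 on the next array (gap over range 0.711, critical value 0.710). Timp2 stood at 2.80 on beta6 null replicate 1, against 1.14 on the next (gap over range 0.777). These are the 2 arrays with the widest values of the series.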

How the results depend on the processing

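27 alternatives were run, 15 of them leaving out 1 array, and no cause of a change was tested unless stated. No paired analysis was possible because the labels give the groups no shared replicate numbers. Mmp12 lacks a value on 1 array and drops out where values on all 15 arrays are asked for. The rise of Mmp12 in beta6 null kept its direction and call in 25 of 26 alternatives, the exception being Xist as a covariate (4.07). Its difference between TGFb1 and beta6 null kept its direction in all 26 and its call in 19. It lost the call under quantile normalization (-2.02), equal spread (-1.22), the 2 groups alone (-2.31), leaving out the 2 arrays numbered apart (-2.20) and Xist (-2.09), and ran from -2.50 to -1.98 with 1 array left out. Mmp13 passed in 0 of 26 alternatives in beta6 null, Mmp8 in 0 of 27 and Mmp19 in 2 of 27.

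Members called in beta6 null against wild type numbered 0 with Xist and 1 to 2 with 1 array left out. With TGFb1 against beta6 null they numbered 0 on features with values on all 15 arrays and under quantile normalization, equal spread, the 2 groups alone, leaving out the arrays numbered apart and Xist, and 0 to 1 with 1 array left out. Members differing from Mmp12 in that comparison numbered 0 under equal spread and under Xist.

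Of all features, 126 were called in beta6 null against wild type (38.1% of them higher). The count was 76 under quantile normalization (52.6% higher), 61 under equal spread (49.2%), 422 with array weights, 41 with the 2 groups alone, 190 without the 2 widest arrays, 78 without the 2 numbered apart, 65 with the title suffix as a block, 0 with Xist and 64 to 154 with 1 array left out. With TGFb1 against beta6 null 94 were called (81.9% higher), and all features shifted by a median of 0.12. The count was 217 on all 15 arrays, 15 under quantile normalization (53.3% higher), 11 under equal spread (72.7%), 621 with array weights, 321 without the widest arrays, 30 without those numbered apart, 43 with the suffix block, 0 with Xist and 23 to 317 with 1 array left out. Between TGFb1 and wild type 1 was called with array weights, 1 with the 2 groups alone and 0 to 1 with 1 array left out.

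All lists other than the cell markers were counted together, the regulators of metalloproteinase transcription among them. The main calls were regulators alone, Skil in beta6 null, and Pparg and Skil with TGFb1 against beta6 null. Genes called in these lists in beta6 null (1) numbered 2 on all 15 arrays, 4 with array weights, 0 with the 2 groups alone, 3 without the widest arrays, 2 without those numbered apart, 0 with Xist and 1 to 2 with 1 array left out. With TGFb1 against beta6 null (2) they numbered 1 with values on at least 2 arrays, 1 without centring, 0 under quantile normalization, 0 under equal spread, 4 with array weights, 1 with the 2 groups alone, 5 without the widest arrays, 0 without those numbered apart, 0 with the suffix block, 0 with Xist and 0 to 3 with 1 array left out.

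Members without a call turned sign near 0. In beta6 null against wild type Mmp14 was -0.20 with Xist, and with 1 array left out Timp1 ran from -0.63 to 0.22 and Timp2 from -0.017 to 0.52. With TGFb1 against beta6 null Mmp14 was 0.11 with Xist, and with array weights Timp1 was 0.17 and Timp3 -0.061. Between TGFb1 and wild type Mmp14 was 0.035 under equal spread, 0.083 with array weights and 0.21 without the widest arrays, Mmp19 was -0.061 without the widest arrays, and Timp2 was 0.0077 under quantile normalization, 0.035 under equal spread and 0.068 with array weights. With 1 array left out Mmp14 ran from -0.30 to 0.21 and Mmp19 from -0.061 to 0.20.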
